A study of Mus musculus with 18 samples.

Results

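The genes described here are the potassium channel genes of the mouse, pore-forming subunits and their auxiliary partners, measured in pancreatic islets of obese and lean mice. A gene was taken when its symbol began with Kcn, letters and a digit and when the array had a transcript cluster, a set of probes for 1 transcript region, annotated to it alone. Kcnk9 was left out, and a gene with several clusters was represented by the cluster with the highest mean. This gave 88 of the 22180 genes on the array. Kcnd3os and Kcnq1ot1, which the symbols also matched, are long non-coding RNAs and not channels. The islets came from C57BL/KsJ db/db mice, which lack the long form of the leptin receptor, with lean C57BL/KsJ controls, and from C57BL/6J ob/ob mice, which lack leptin, with lean C57BL/6J controls. Each group was sampled at 6 and at 16 weeks of age, with 2 arrays per group in a table of 16 arrays, and a further db/db and a further lean KsJ array of 16 weeks, called replicate 3 below, were in a table of their own. These further arrays were of another array design, so their levels may not be on the same scale as those of the larger table. Islets were isolated and picked by hand, and the labels do not say whether an array held 1 animal or a pool, nor the sex of the animals. P-values below therefore measure the spread between these samples, and the small number of arrays limits the precision.

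Potassium channels set the resting potential of the beta cell and end each action potential. At low glucose the ATP-sensitive channel, built from Kcnj11 and the sulphonylurea receptor Abcc8, holds the membrane polarised. When glucose is metabolised this channel closes, calcium enters, insulin is released, and voltage-gated, calcium-activated and tandem-pore-domain channels then repolarise the membrane. Auxiliary subunits such as the Kcnip, Kcnmb, Kcne and Kcnab families change the gating, number or surface delivery of the pores. The electrically silent Kcng, Kcns, Kcnv and Kcnf subunits form no channel alone and alter the channels of the Kcnb genes.

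Values are log2 signals, and differences are obese minus lean on that scale. Of the 88 genes, 70 had a mean above the 30th percentile of all genes, a log2 value of 2.99, and were tested. The other 18 were dim and are given by name only. The test was limma over all 16 arrays with p-values adjusted by the Benjamini-Hochberg method over 15526 genes, and "passed" below means an adjusted p under 0.05. Array medians lay between 3.51 and 3.83 in the larger table and were 3.91 for the db/db and 4.10 for the lean array of the smaller one. Ins2, the insulin gene, lay between 11.60 and 12.20 and Gcg, the glucagon gene, between 13.09 and 13.47 over all 18 arrays, so both islet hormones were present on each. Markers of other tissue were not even. The mean of 7 measured acinar markers was 13.19 on lean KsJ 16-week replicate 2 and on replicate 3, against 10.89 on replicate 1. The mean of 9 enterocyte markers was 11.11 on lean 6J 6-week replicate 2, 9.57 on db/db 16-week replicate 2, 9.70 on db/db replicate 3 and 7.20 on db/db 16-week replicate 1, and at most 6.49 on the others. In bulk islets, fewer cells of a type and less RNA per cell cannot be told apart.

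Over both models and both ages, the same few channel genes differed in the same direction between obese and lean islets. Kcng3, a silent subunit that modifies the delayed rectifier, was lower in obese islets. Kcnn4, Kcnk1, Kcnh1 and Kcnmb1 were higher. The mean of the 4 obese minus lean differences was used to test this, a contrast chosen after the values were seen, and the 4 pairs share no arrays. By this test 8 of the 70 genes passed, 7 higher, against 7.15% of all genes, and 1 lower, against 3.71%, while 10.9% of all genes passed in either direction, so channel genes passed about as often as genes in general. At an unadjusted p under 0.05 there were 17 of 70, against 27% of all genes.

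The RefSeq promoter windows of the 5 genes whose call held under every setting tried are shown. Each of these genes kept its direction in both models, Kcng3 lower and the others higher in obese islets. Each window is 300 bases of GRCm38.p6, read along the gene's strand, and runs from 250 bases before to 50 bases after a transcript start. For Kcnk1, Kcnn4 and Kcnh1 the window holds neither end of the annotated gene. Capitals mark the GC box GGGCGG on either strand and the E-box CANNTG, which did not overlap here.
Kcng3: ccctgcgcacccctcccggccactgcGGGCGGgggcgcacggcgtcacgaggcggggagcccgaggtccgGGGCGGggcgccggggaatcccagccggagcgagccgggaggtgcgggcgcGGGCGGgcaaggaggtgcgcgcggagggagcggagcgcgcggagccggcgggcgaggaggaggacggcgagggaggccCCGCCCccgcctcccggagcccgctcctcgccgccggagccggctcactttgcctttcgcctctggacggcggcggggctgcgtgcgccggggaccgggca
Kcnmb1: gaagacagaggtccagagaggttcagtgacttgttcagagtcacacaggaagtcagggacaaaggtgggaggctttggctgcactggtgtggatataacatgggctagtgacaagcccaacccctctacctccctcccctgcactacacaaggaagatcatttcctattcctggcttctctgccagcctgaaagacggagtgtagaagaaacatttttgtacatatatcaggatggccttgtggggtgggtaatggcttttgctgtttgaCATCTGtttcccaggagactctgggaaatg
Kcnk1: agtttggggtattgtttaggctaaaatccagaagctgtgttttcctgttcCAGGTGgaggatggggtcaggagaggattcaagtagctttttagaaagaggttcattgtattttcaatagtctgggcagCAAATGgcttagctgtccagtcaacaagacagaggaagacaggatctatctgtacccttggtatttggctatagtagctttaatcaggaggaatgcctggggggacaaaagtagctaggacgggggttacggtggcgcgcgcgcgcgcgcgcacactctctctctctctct
Kcnn4: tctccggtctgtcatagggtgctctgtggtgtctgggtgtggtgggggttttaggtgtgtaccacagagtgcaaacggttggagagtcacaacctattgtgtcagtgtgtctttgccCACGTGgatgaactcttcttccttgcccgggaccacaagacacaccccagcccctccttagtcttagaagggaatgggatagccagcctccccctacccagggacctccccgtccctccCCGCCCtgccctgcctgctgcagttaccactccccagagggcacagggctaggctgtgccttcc
Kcnh1: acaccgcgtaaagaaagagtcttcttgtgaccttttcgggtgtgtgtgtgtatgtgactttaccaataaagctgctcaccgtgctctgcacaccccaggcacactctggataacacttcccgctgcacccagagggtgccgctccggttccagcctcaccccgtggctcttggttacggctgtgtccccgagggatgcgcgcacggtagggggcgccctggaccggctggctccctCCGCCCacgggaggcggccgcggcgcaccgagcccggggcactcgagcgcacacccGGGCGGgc

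The Kcng3 window, chr17:83631846-83632145 on the minus strand, was 82.0% G and C with 49 CpG and 4 GC boxes. The Kcnmb1 window, chr11:33962763-33963062 on the plus strand, was 49.7% G and C with 1 CpG and 1 E-box. The Kcnk1 window, chr8:125994852-125995151 on the plus strand, held 2 E-boxes and no GC box. The Kcnn4 window, chr7:24370013-24370312 on the plus strand, held 1 of each, and the Kcnh1 window, chr1:192190527-192190826 on the plus strand, held 2 GC boxes. Among 32851 promoters of the same length, 35.7% held a GC box and 72.3% an E-box. Of the 94 promoters found for 69 of the 88 genes, 47.9% held a GC box, 73.4% an E-box and 4.26% the TATA box TATAAA, which 13.6% of all promoters held. These matches describe the letters only.

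Kcng3 showed the largest mean difference among the tested channel genes. At 6 weeks it was 6.26 and 5.56 in db/db islets, against 7.15 and 7.46 in lean KsJ islets. At 16 weeks it was 4.80 and 5.13 in db/db islets, against 6.59 and 6.06 in lean islets, and the smaller table gave 5.09 in db/db and 6.19 in lean islets. In ob/ob islets it was 4.95 and 6.99 at 6 weeks, against 7.48 and 7.20 in lean 6J islets, and 5.53 and 6.06 at 16 weeks, against 7.83 and 7.92 in lean islets. The obese arrays lay below the lean arrays in all 4 pairs, as for 1.09% of all genes. The mean difference was -1.55 ± 0.26 (SE, 8 obese and 8 lean arrays; adjusted p from limma = 0.00668), a 2.93-fold lower signal. Within single pairs the differences lay between -1.36 and -2.08 and none passed alone, with adjusted p from limma of 0.103 to 0.791. The mean of the alpha cell markers was also lower in 16-week ob/ob islets, at 8.33 and 8.40, against 9.34 and 9.19 in lean islets. In 16-week db/db islets it was 8.22 and 8.27, between the lean values of 8.64 and 7.93. In 6-week db/db islets it was 8.63 and 8.58, against 8.94 and 9.0 in lean islets, below the lean arrays as Kcng3 was. In 6-week ob/ob islets it was 8.43 and 8.93, against 8.86 and 9.06 in lean islets, an overlapping pair. The mean of the beta cell markers and that of the delta and pancreatic polypeptide cell markers followed the same pattern. Both lay below the lean arrays in 16-week ob/ob and 6-week db/db islets and overlapped with them in the other pairs. The pattern was therefore not particular to the alpha cell markers. The part of any of these markers in the fall of Kcng3 was not tested.

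Kcnk1 encodes a weak inward rectifier of the tandem-pore-domain family. It was 9.27 and 9.74 in 6-week db/db islets, against 8.53 on both lean arrays, and 9.89 and 9.86 at 16 weeks, against 8.18 and 9.28 in lean islets. It was 9.89 and 8.88 in 6-week ob/ob islets, against 8.64 and 8.48 in lean islets, and 9.66 and 9.76 at 16 weeks, against 8.86 and 8.69 in lean islets. The obese arrays lay above the lean arrays in each pair, and replicate 3 gave 9.13 in db/db and 8.31 in lean islets. The mean difference was 0.97 ± 0.18 (adjusted p from limma = 0.00909), a 1.96-fold higher signal, and the difference in single pairs ranged from 0.82 to 1.15. Among the 8 obese and 8 lean arrays, only lean KsJ 16-week replicate 2, the array rich in acinar markers, reached the obese range.

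Kcnmb1, the auxiliary subunit that raises the calcium sensitivity of the large-conductance channel, also lay above the lean arrays in each pair. It was 6.00 and 6.80 in 6-week db/db islets, against 5.56 and 5.70 in lean islets, and 6.45 and 6.03 at 16 weeks, against 5.40 and 4.59 in lean islets. It was 6.43 and 5.85 in 6-week ob/ob islets, against 5.84 and 5.51 in lean islets, and 6.57 and 6.51 at 16 weeks, against 5.85 and 5.75 in lean islets. The mean difference was 0.80 ± 0.16 (adjusted p from limma = 0.0120), or 1.75-fold. With Kcnip4, chosen after its values were seen, 3 of 70 channel genes were above in all 4 pairs, against 3.31% of all genes. Kcnmb1 is abundant in smooth muscle, and in 16-week db/db islets the mean of 9 pericyte, stellate and smooth muscle markers was 6.61 and 7.16, against 5.39 on both lean arrays. In 6-week db/db islets it was 6.75 on both arrays, against 6.25 and 6.67 in lean islets, so in both db/db pairs it lay above the lean arrays, as Kcnmb1 did. In ob/ob islets that mean was 6.38 and 6.17 at 6 weeks, against 6.54 and 6.46 in lean islets, and 6.46 and 6.45 at 16 weeks, against 6.17 and 6.91 in lean islets, which put the ob/ob arrays below the lean arrays at 6 weeks and between them at 16 weeks. The part of these markers in the difference of Kcnmb1 was not tested. Kcnmb1 lies inside Kcnip1 in the annotation, and signal of the host gene cannot be told apart if probes do not separate the strands.

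Kcnn4 encodes the intermediate-conductance calcium-activated channel, best known from blood cells and epithelia. In 6-week db/db islets it was 6.45 and 6.26, against 4.77 and 5.35 in lean islets, and at 16 weeks 6.40 and 5.87, against 4.92 and 4.74 in lean islets. In 16-week ob/ob islets it was 5.53 and 5.58, against 4.30 and 3.81 in lean islets. These 3 pairs did not overlap. The 6-week ob/ob arrays did, at 5.51 and 4.20, against 4.02 and 4.90 in lean islets. The mean difference was 1.12 ± 0.21 (adjusted p from limma = 0.00882), or 2.18-fold. The macrophage marker mean was higher in 16-week db/db islets, 6.67 and 6.47, against 5.74 and 5.09 in lean islets, and lay at 6.10 and 6.55 in 16-week ob/ob islets, against 6.31 and 6.30 in lean islets, an overlapping pair. The enterocyte marker mean lay above the lean arrays in the same 3 pairs as Kcnn4. It was 5.98 and 5.13 in 6-week db/db islets, against 4.77 and 4.83 in lean islets, and 7.20 and 9.57 at 16 weeks, against 4.77 and 6.49 in lean islets. In 16-week ob/ob islets it was 5.13 and 5.27, against 4.92 and 4.91 in lean islets, and in 6-week ob/ob islets, 5.13 and 4.92, against 4.99 and 11.11 in lean islets, it overlapped, as Kcnn4 did. The endothelial marker mean followed the same pattern. It was 8.33 and 8.34 in 6-week db/db islets, against 8.16 and 8.07 in lean islets. At 16 weeks it was 7.71 and 8.06 in db/db islets, against 7.53 and 6.78 in lean islets. In 16-week ob/ob islets it was 8.17 and 8.27, against 7.76 and 7.93 in lean islets. The 6-week ob/ob pair overlapped, at 8.10 and 7.92, against 8.10 and 7.76 in lean islets. The ductal marker mean overlapped in all 4 pairs. The part of these markers in the difference of Kcnn4 was not tested.

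Kcnh1 encodes a slowly activating voltage-gated channel of the ether-à-go-go family. It was 8.07 and 8.11 in 6-week db/db islets, against 7.90 and 7.33 in lean islets, and 7.97 and 8.10 at 16 weeks, against 7.27 and 6.64 in lean islets. It was 8.49 and 7.20 in 6-week ob/ob islets, against 7.30 and 6.33 in lean islets, and 8.17 and 7.93 at 16 weeks, against 6.70 and 6.34 in lean islets. The largest gap was in 16-week ob/ob islets, and the 6-week ob/ob pair overlapped. The mean difference was 1.03 ± 0.21 (adjusted p from limma = 0.0128), or 2.04-fold.

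**Figure D1:**
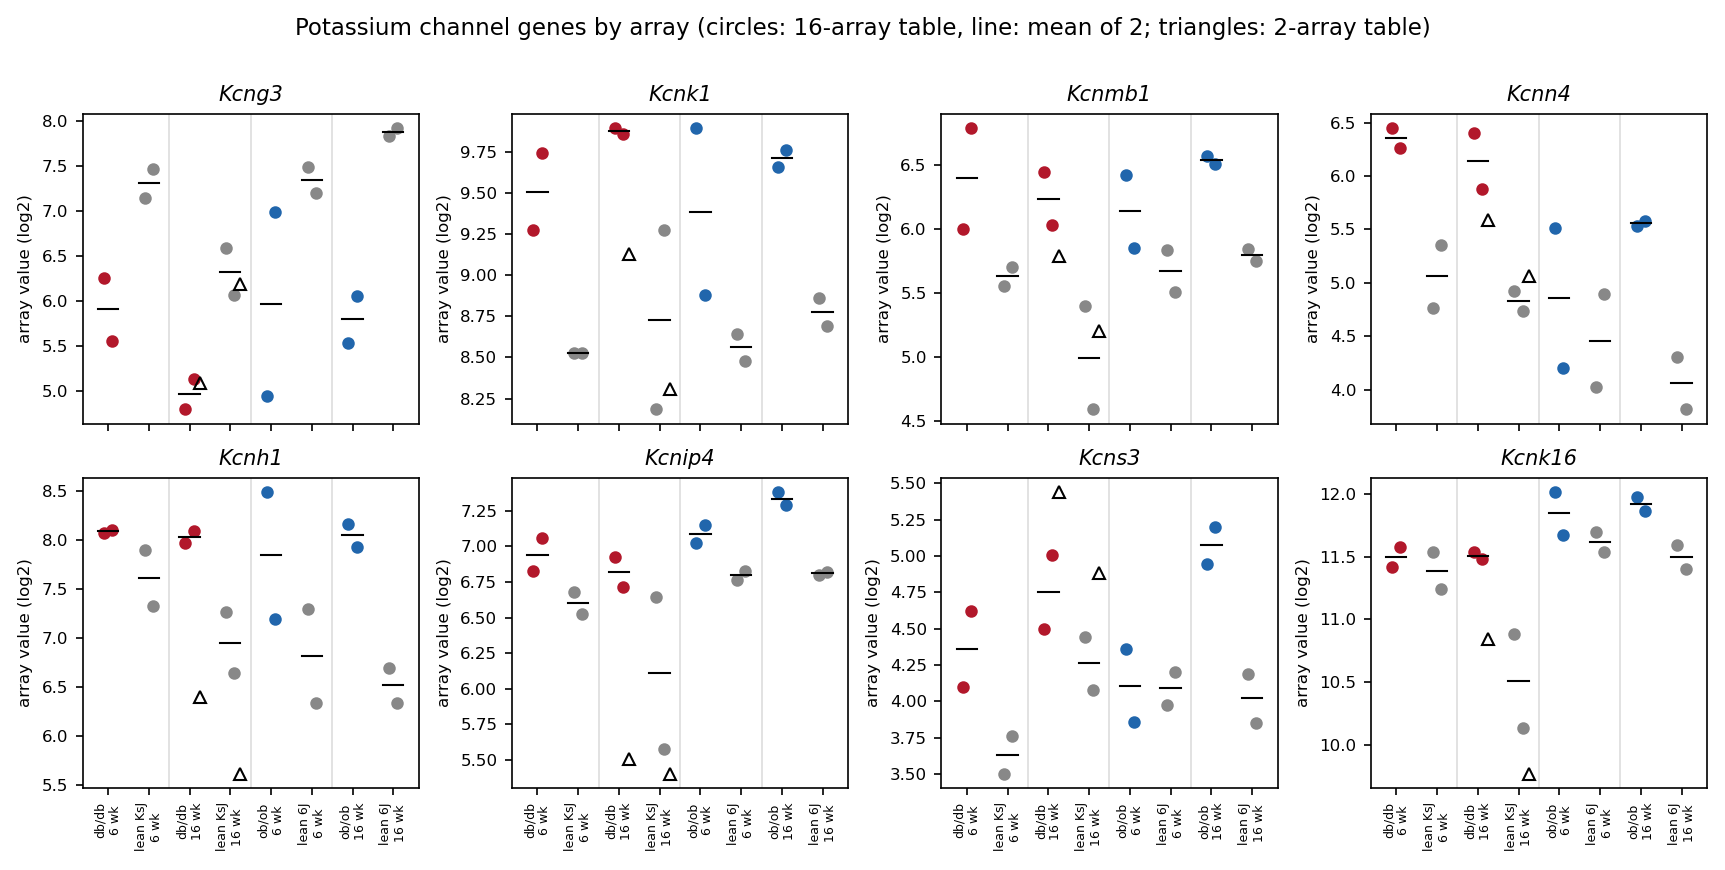
Log2 signal (vertical axes) of 8 potassium channel genes by group (horizontal axes), with circles for the 16-array table, a line for the mean of the 2 arrays and triangles for replicate 3, which comes from the separate table. Kcng3 was lower and Kcnk1, Kcnmb1 and Kcnip4 higher on the obese arrays of every pair, while Kcnk16 was low in 16-week lean KsJ islets.

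Kcns3, Kcnip2 and Kcnk16 also passed on the mean of the 4 pairs, but their calls were less stable. Kcns3, a silent partner of the Kcnb channels, differed by 0.57 ± 0.13 (adjusted p from limma = 0.0226). Kcnip2, a calcium-binding subunit of the Kcnd channels, differed by 0.63 ± 0.17 (adjusted p from limma = 0.0427), and Kcnk16 by 0.44 ± 0.12 (adjusted p from limma = 0.0376). When each of the 16 arrays was left out in turn, Kcns3 kept its call 11 times, Kcnip2 6 times and Kcnk16 3 times. Kcng3, Kcnk1, Kcnmb1, Kcnn4 and Kcnh1 kept theirs in all 16 such fits and under all 11 other settings, with Kcng3 between -1.81 and -1.30 over the arrays left out. In the smaller table db/db minus lean was -1.10 for Kcng3, 0.82 for Kcnk1, 0.79 for Kcnh1, 0.58 for Kcnmb1 and 0.53 for Kcnn4, the direction of the larger table in each case.

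**Figure D2:**
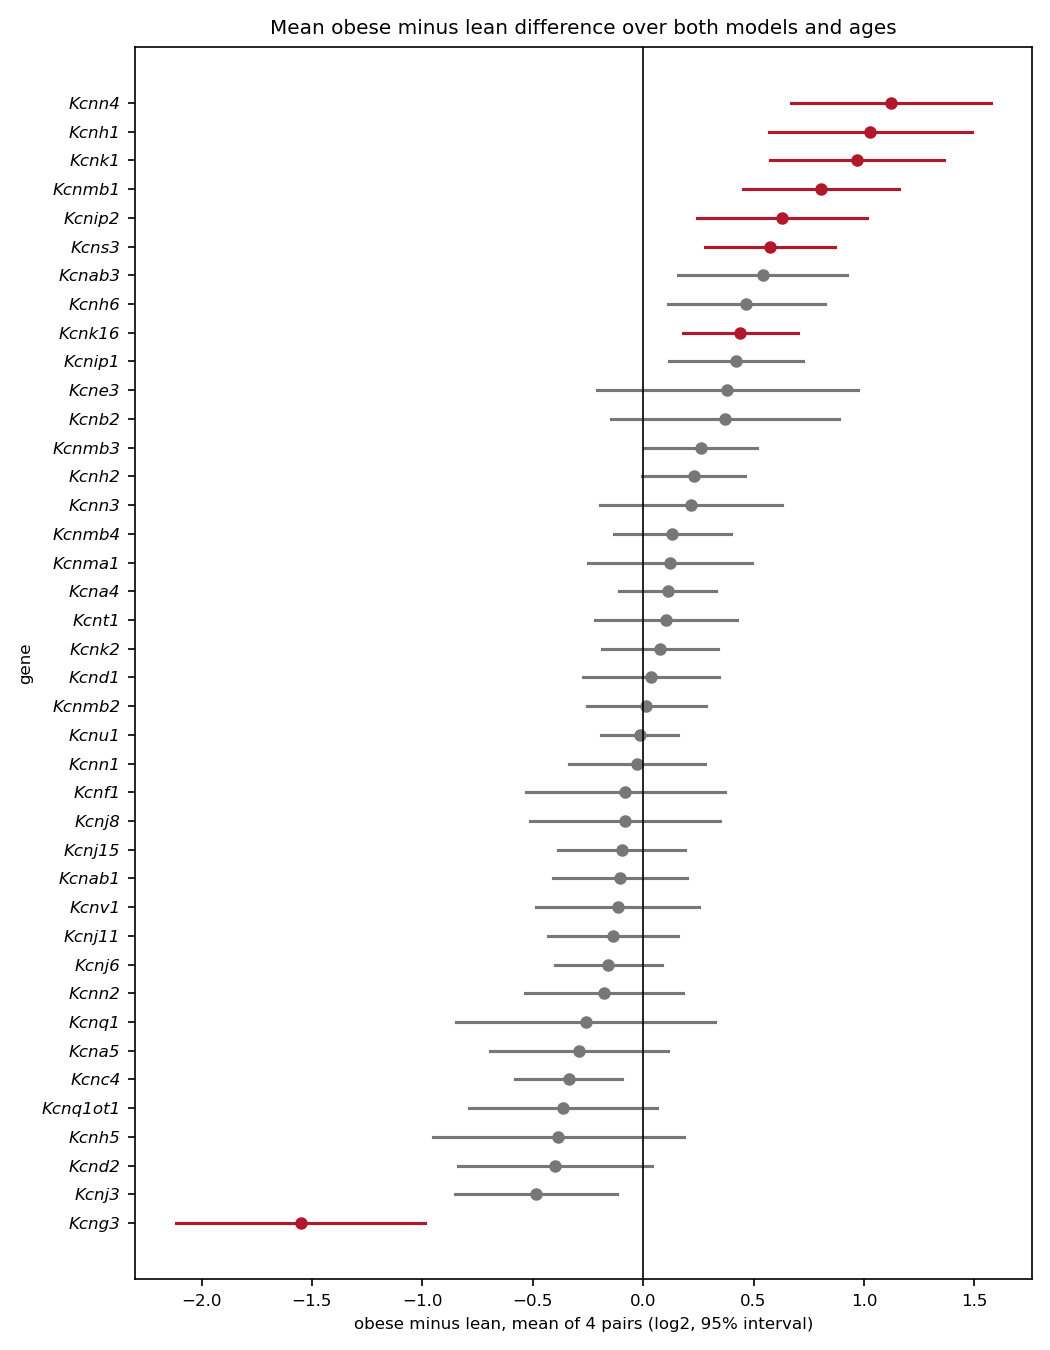
Mean of the 4 obese minus lean differences (horizontal axis, log2, points) with 95% intervals (lines) for the channel genes named by rule (vertical axis), in red where the adjusted p was under 0.05. Kcng3 stands at -1.55 and Kcnn4 at 1.12, and the interval of Kcnj11 spans 0.

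Of the single comparisons, only that of 16-week db/db with lean KsJ islets held channel genes that passed, 6 of 70, against 5.8% of all genes. At an unadjusted p under 0.05 there were 25 of 70, against 24.5%, so channel genes were called about as often as genes in general. Higher were Kcna4, Kcnk16, Kcnab3, Kcnh6 and Kcnmb1, 5 of 70 against 5.32%, and lower was Kcnj15, against 0.477%. Kcna4, the rapidly inactivating Shaker-type pore, was 8.88 and 8.85 in db/db islets, against 8.10 and 7.44 in lean islets. Its difference was 1.09 ± 0.20 (adjusted p from limma = 0.0197). Kcnk16, the TALK-1 channel that is abundant in beta cells and restrains calcium entry, was 11.54 and 11.48 in db/db islets, against 10.88 and 10.14 in lean islets, a difference of 1.0 ± 0.24 (adjusted p from limma = 0.0363). The db/db arrays agreed closely with each other here, and the lean arrays were the low and scattered ones.

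Kcnab3, a cytosolic subunit of the Shaker-type channels, was 6.90 and 6.80 in db/db islets, against 6.11 and 4.82 in lean islets, a difference of 1.39 ± 0.35 (adjusted p from limma = 0.0442). Kcnh6, of the ether-à-go-go-related family, was 8.54 and 8.60, against 7.89 and 6.68 in lean islets, a difference of 1.29 ± 0.32 (adjusted p from limma = 0.0449). Both were lowest on lean replicate 2. Kcnmb1 differed by 1.24 ± 0.32 in this pair (adjusted p from limma = 0.0473). Kcnj15, an inward rectifier with a signal near the dim limit, was 2.85 and 3.14 in db/db islets, against 4.35 and 3.79 in lean islets, a difference of -1.07 ± 0.26 (adjusted p from limma = 0.0404).

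None of these 6 calls held in every fit. Kcna4 and Kcnab3 lost their calls when the clusters of a gene were averaged. The other cluster of Kcnab3 had a mean of 4.805, and that of Kcna4 a mean of 2.51, below the dim limit. Without either 16-week db/db array no channel gene passed. Without lean replicate 2, the array rich in acinar markers, none of the 6 passed and the differences were 0.76 for Kcna4, 0.63 for Kcnk16, 0.74 for Kcnab3, 0.68 for Kcnh6, 0.84 for Kcnmb1 and -1.35 for Kcnj15. Without lean replicate 1 instead, the differences were 1.42 for Kcna4, 1.37 for Kcnk16 and 2.03 for Kcnab3. They were 1.89 for Kcnh6, 1.65 for Kcnmb1 and -0.79 for Kcnj15 in that fit. No channel gene passed after quantile normalization or after centring on the gene median, which moved the median difference of all genes from 0.18 to 0.05 and -0.02. The beta cell marker mean was 10.67 and 10.82 in db/db islets, against 11.26 and 10.76 in lean islets. Replicate 3 gave db/db minus lean differences of 0.63 for Kcna4, 1.08 for Kcnk16, 2.07 for Kcnab3, 0.96 for Kcnh6 and 0.58 for Kcnmb1, but 0.28 for Kcnj15, the opposite direction. The lean array of that pair was also rich in acinar markers. Of the 70 tested genes, 53 had the same sign in both tables. The share of all genes with the same sign was not computed, so this count is not a result about channel genes.

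In the 3 other obese against lean comparisons no channel gene passed by limma. For 16-week ob/ob islets the unadjusted p was under 0.05 for 20 of 70, against 16.6% of all genes, and 0.0708% of all genes passed, 0.0129% higher and 0.058% lower. For 6-week db/db islets it was 10 of 70, against 8.52%, and 0.0258% of all genes passed. For 6-week ob/ob islets it was 6 of 70, against 6.15%, and no gene passed. The median difference of the 70 genes was 0.27 in 16-week db/db islets, against 0.18 for all genes, and -0.09 in 16-week ob/ob islets, against -0.03. The db/db arrays of 16 weeks lay above the lean arrays for 28 of the 70 genes, against 32.8% of all genes, and below for 12, against 10.4%. Those of 6 weeks lay above for 18, against 21.9%, and below for 12, against 27.9%. The ob/ob arrays of 16 weeks lay above for 18, against 28.2%, and below for 25, against 33.3%, and those of 6 weeks above for 17, against 19.9%, and below for 10, against 16.8%. At 6 weeks the median was 0.06 in db/db and 0.07 in ob/ob islets, against -0.02 and 0.00 for all genes in the same comparisons.

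**Figure D3:**
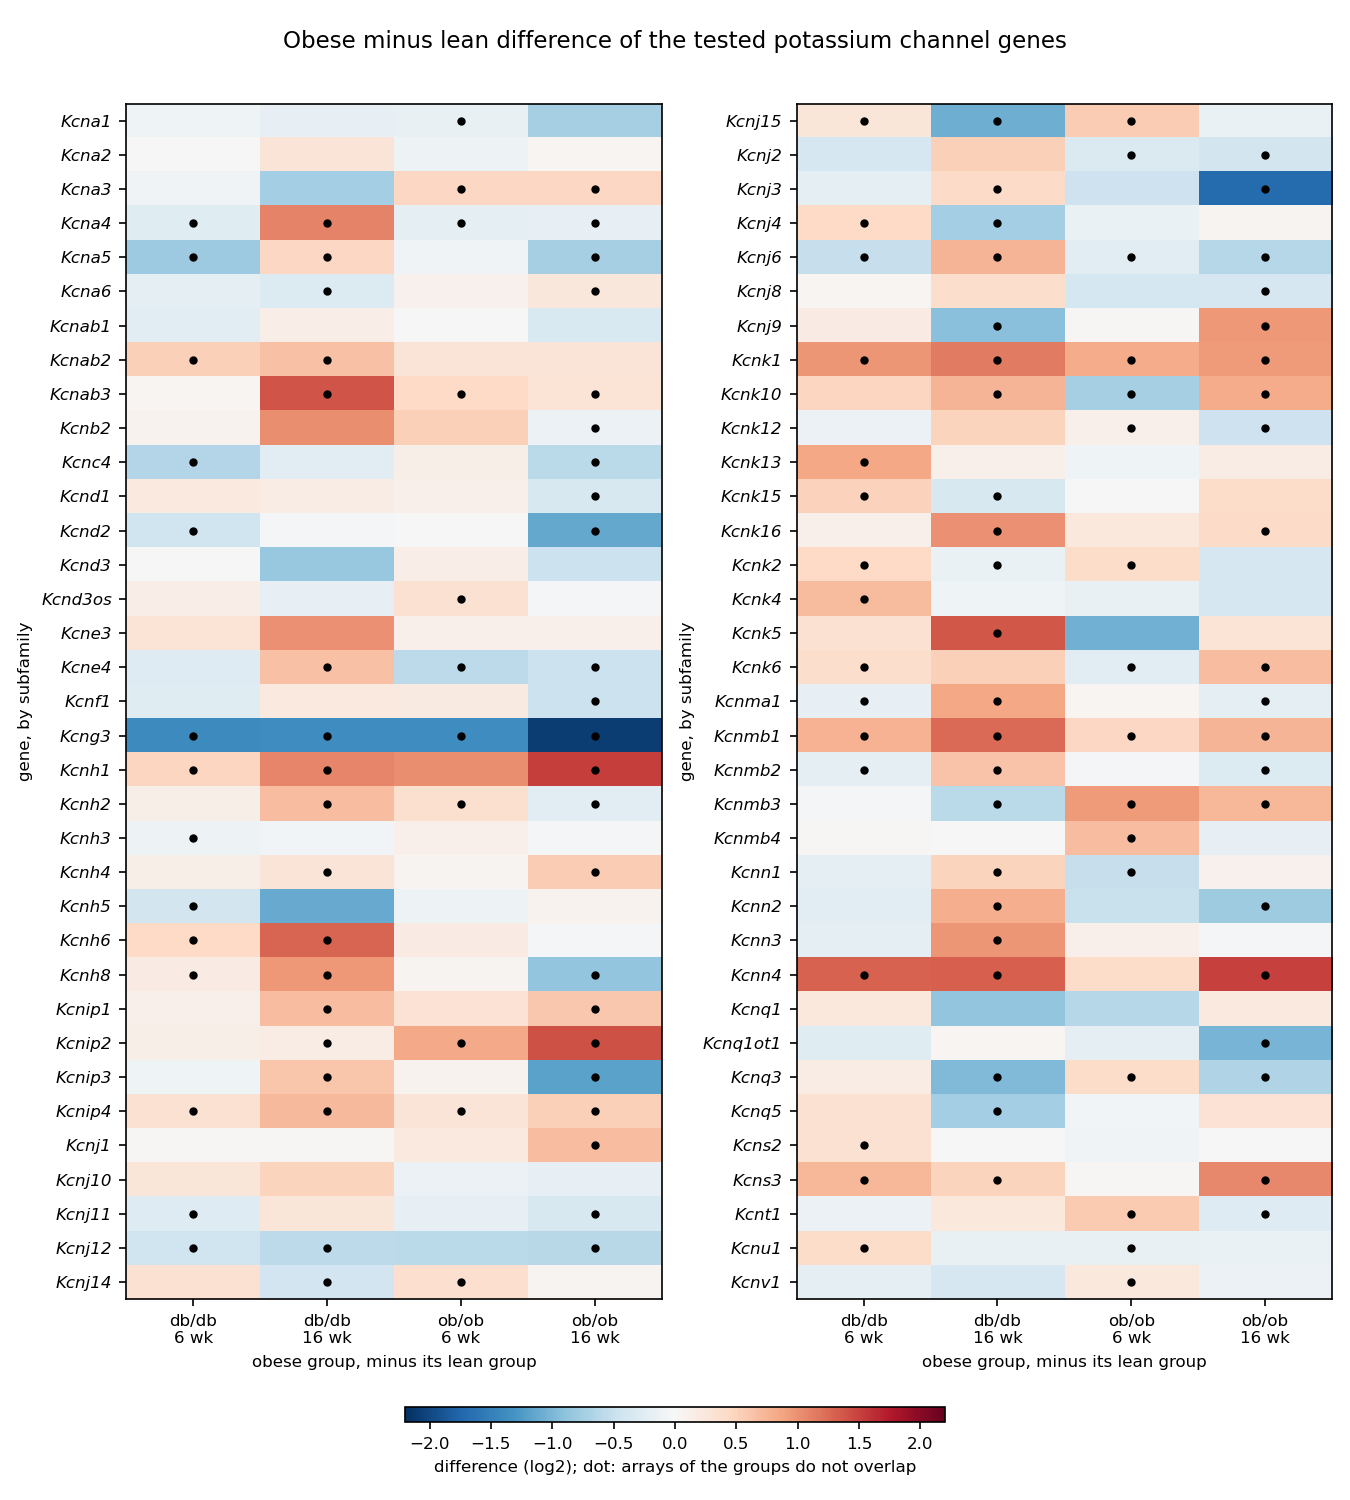
Obese minus lean difference (colour, log2) of the 70 tested channel genes, in rows by subfamily, in the 4 pairs of groups (columns), with a dot where the obese and lean arrays did not overlap. The row of Kcng3 is blue in each column and those of Kcnk1 and Kcnmb1 are red, while Kcnj3, Kcnj6 and Kcnj9 change colour between db/db and ob/ob islets at 16 weeks.

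Among the inward rectifiers, 14 genes were measured and 12 tested. Kcnj11, the pore of the ATP-sensitive channel, was 7.39 and 7.50 in 6-week db/db islets, against 7.85 and 7.60 in lean islets, and 7.0 and 7.21 at 16 weeks, against 7.32 and 6.37 in lean islets. It was 7.63 and 7.85 in 6-week ob/ob islets, against 8.08 and 7.76 in lean islets, and 7.48 and 7.56 at 16 weeks, against 7.96 and 7.78 in lean islets. Obese arrays lay below lean arrays in the 6-week db/db and 16-week ob/ob pairs only. The mean difference was -0.14, with a 95% interval of -0.43 to 0.16, and did not pass. Replicate 3 gave 6.76 in db/db and 7.29 in lean islets. Its partner Abcc8 differed by 0.09 on the mean of the 4 pairs and was 10.65 on lean KsJ 16-week replicate 2, against 11.40 to 11.73 on the other 15 arrays. Kcnj8, the pore found in vascular cells, had a mean difference of -0.08, with a 95% interval of -0.51 to 0.35.

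The G protein-gated inward rectifiers Kcnj3, Kcnj6 and Kcnj9, which open when inhibitory receptors are stimulated, lay on opposite sides of their lean arrays in the models at 16 weeks. Kcnj3 was 5.11 and 5.83 in db/db islets, against 5.11 and 4.99 in lean KsJ islets, and 4.15 and 4.42 in ob/ob islets, against 6.14 and 5.82 in lean 6J islets. The ob/ob difference, -1.70 ± 0.33, had the smallest p of the channel genes in that comparison (adjusted p from limma = 0.0691). It passed in 6 of the alternative fits: that of the compared groups alone, that without the 3 arrays that stand apart, and those without either 6-week ob/ob array or either 16-week lean KsJ array. Kcnj6 was 4.39 and 4.76 in db/db islets, against 4.08 and 3.56 in lean islets, and 4.78 and 4.82 in ob/ob islets, against 5.47 and 5.39 in lean islets. Kcnj9, chosen after its values were seen, had the reverse pattern, 3.23 and 2.88 in db/db islets, against 3.54 and 4.43 in lean islets, and 3.44 and 3.69 in ob/ob islets, against 2.44 and 2.79 in lean islets. The groups did not overlap in either model, although for Kcnj3 the lower db/db and the higher lean KsJ array were equal at this rounding. The difference between the models had adjusted p from limma of 0.149 for Kcnj3, 0.149 for Kcnj6 and 0.143 for Kcnj9 and did not pass. Kcnj5, the remaining member of this group, was dim. Kcnj9 had a mean of 3.01, just above the dim limit. It was highest on lean KsJ 16-week replicate 2 and lean replicate 3, at 4.43 and 4.37, the arrays rich in acinar markers. The part of acinar RNA in its level was not tested.

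**Figure D4:**
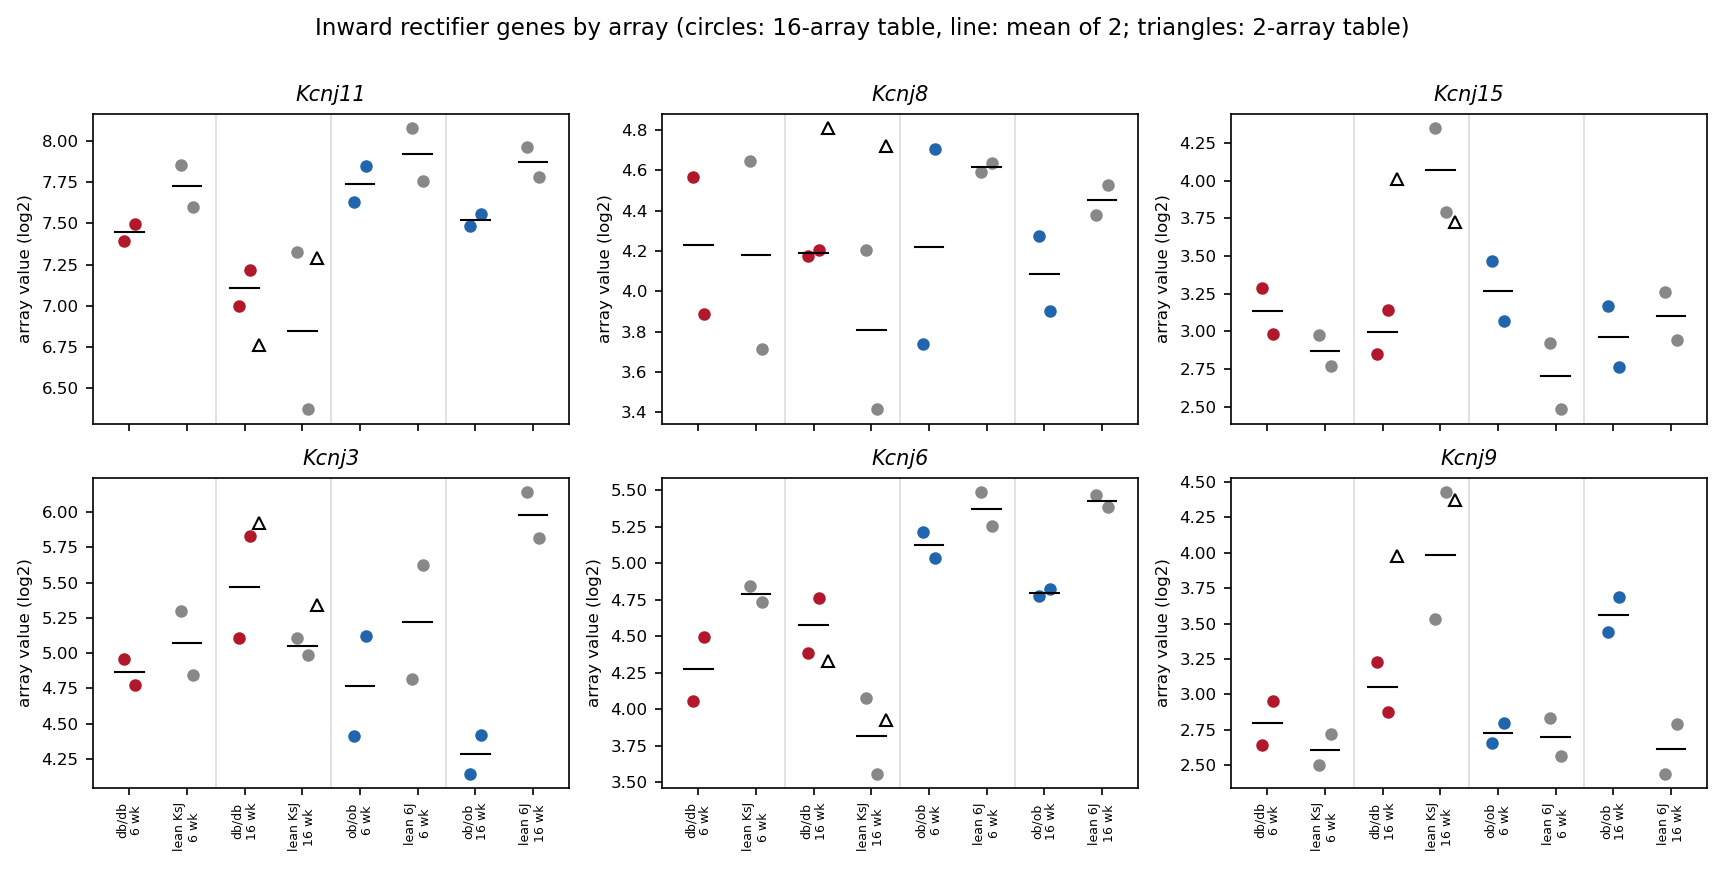
Log2 signal (vertical axes) of 6 inward rectifier genes by group (horizontal axes), with circles for the 16-array table, a line for the mean of the 2 arrays and triangles for replicate 3. Kcnj3 was 4.15 and 4.42 in 16-week ob/ob islets, below 6.14 and 5.82 in lean 6J islets. Kcnj9, with a mean just above the dim limit, was above its lean arrays in 16-week ob/ob islets.

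Such opposite, non-overlapping differences at 16 weeks were seen for 11 channel genes above the lean arrays in db/db and below them in ob/ob islets, against 7.37% of all genes. Besides Kcnj3 and Kcnj6 these were Kcna4, Kcna5, Kcne4, Kcnh2, Kcnh8, Kcnip3, Kcnma1, Kcnmb2 and Kcnn2. For Kcnj9, Kcna6 and Kcnmb3 the pattern was reversed, 3 of 70, against 1.66%. Kcne4, Kcnh8, Kcnip3 and Kcna6 are named because their values showed this pattern. The median difference between the models at 16 weeks was 0.31 over the 70 genes and 0.25 over all genes, and after median centring it was 0.06 over the 70 and 0.01 over all genes. No channel gene's difference between the models passed by limma at 16 weeks, where 0.0129% of all genes passed and the unadjusted p was under 0.05 for 17 of 70, against 15.6% of all genes, or at 6 weeks, where it was for 4 of 70, against 2.25%.

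Among the delayed rectifier and A-type channels, Kcnb2, a delayed rectifier pore, was 6.48 and 5.74 in 16-week db/db islets, against 5.94 and 4.22 in lean islets, an overlapping pair, with a difference of 1.02 ± 0.47 (adjusted p from limma = 0.208). In 16-week ob/ob islets it was 6.23 and 6.28, against 6.43 and 6.34 in lean islets. Kcnc4, a rapidly inactivating channel, had differences of -0.65 in 6-week db/db and -0.58 in 16-week ob/ob islets, without overlap and without passing. Kcnd2, an A-type pore, was 3.25 and 3.16 in 16-week ob/ob islets, against 4.52 and 4.16 in lean islets, a difference of -1.13 ± 0.40 (adjusted p from limma = 0.195). Of its auxiliary subunits, Kcnip1 differed by 0.67 in 16-week db/db and 0.59 in 16-week ob/ob islets, without passing. Kcnip4 was 6.92 and 6.72 in 16-week db/db islets, against 6.65 and 5.58 in lean islets, and 7.38 and 7.29 in 16-week ob/ob islets, against 6.80 and 6.82 in lean islets, with a mean difference of 0.47 ± 0.14 (adjusted p from limma = 0.0513). Kcnip2 was 7.10 and 6.38 in 16-week ob/ob islets, against 5.54 and 5.14 in lean islets, a difference of 1.40 ± 0.35 (adjusted p from limma = 0.106). Kcna5 had opposite signs in db/db islets, -0.81 at 6 weeks and 0.46 at 16 weeks.

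The calcium-activated channels besides Kcnn4 and Kcnmb1 did not pass in any comparison. Kcnma1, the large-conductance pore, was 8.65 and 8.66 in 16-week db/db islets, against 8.49 and 7.12 in lean islets, a difference of 0.85 ± 0.34 (adjusted p from limma = 0.149). The other differences of Kcnma1 lay between -0.22 and 0.04. Kcnmb2, its auxiliary subunit that causes inactivation, differed by 0.63 in 16-week db/db and -0.30 in 16-week ob/ob islets, and Kcnmb3 by -0.59 and 0.73. The largest difference of Kcnmb3 was 0.94 ± 0.23 in 6-week ob/ob islets, without overlap (adjusted p from limma = 0.791). Kcnmb3 had a mean of 3.36, near the dim limit, and overlaps Pik3ca in the annotation. Kcnmb4 differed by 0.67 in 6-week ob/ob islets and by -0.18 to 0.02 elsewhere. Of the small-conductance channels, Kcnn3 was 9.32 and 9.30 in 16-week db/db islets, against 9.08 and 7.60 in lean islets. Kcnn1 and Kcnn2 differed by 0.49 and 0.80 in that pair.

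Within the ether-à-go-go families, Kcnh2 was 7.24 and 7.62 in 16-week db/db islets, against 7.07 and 6.43 in lean islets, a difference of 0.68 ± 0.21 (adjusted p from limma = 0.0875), and differed by -0.25 in 16-week ob/ob islets. Kcnh5 was 5.09 and 4.11 in 16-week db/db islets, against 6.66 and 4.74 in lean islets, an overlapping pair. The 10 tested tandem-pore-domain genes had a median of 0.25 on the mean of the 4 pairs, against 0.02 for all genes, and 2 of them, Kcnk1 and Kcnk16, passed. Kcnk2, a mechanically gated member, had a mean difference of 0.08, with a 95% interval of -0.18 to 0.34.

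Some channel genes were high on the arrays highest in markers of other tissue. Kcnk5, chosen after its values were seen, is expressed in epithelia. It was 6.81 on lean 6J 6-week replicate 2, 6.50 on db/db 16-week replicate 2 and 6.65 on db/db replicate 3, the 3 arrays highest in enterocyte markers, and 3.83 to 5.73 on the other 15. Its 16-week db/db difference was 1.37 ± 0.74 (adjusted p from limma = 0.278). Kcnq1, whose channels serve epithelial secretion, was 8.09 on lean KsJ 16-week replicate 2 and 6.73 on lean replicate 3, and 4.26 to 6.24 on the other 16 arrays. Kcnd3, an A-type pore also chosen after its values were seen, was 5.71 and 5.31 on the same lean arrays and 2.81 to 4.03 elsewhere. The part of acinar or enterocyte RNA in these levels was not tested. Kcnq1ot1, the imprinted antisense RNA that lies inside Kcnq1, had a 16-week ob/ob difference of -1.02 ± 0.39 (adjusted p from limma = 0.230), and Kcnq1 one of 0.22.

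**Figure D5:**
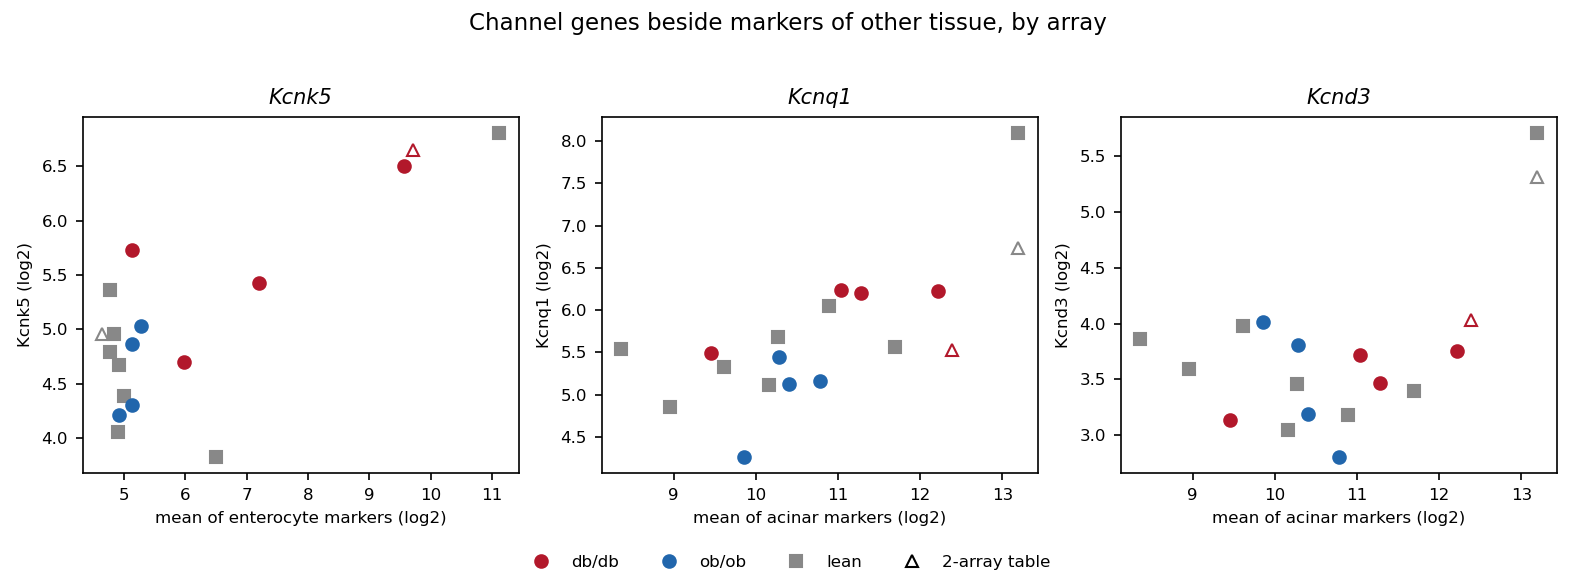
Log2 signal of Kcnk5, Kcnq1 and Kcnd3 (vertical axes) against the mean log2 signal of enterocyte or acinar markers (horizontal axes), 1 point per array, with triangles for replicate 3. Kcnk5 was above 6.4 only on the 3 arrays highest in enterocyte markers, and Kcnd3 above 5 only on the 2 highest in acinar markers.

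With age, no channel gene passed by limma in any group. In lean KsJ islets the unadjusted p was under 0.05 for 23 of 70, against 26.3% of all genes, with the strongest for Kcnj9, 3.54 and 4.43 at 16 weeks, against 2.50 and 2.72 at 6 weeks. There Kcnk16 was 10.88 and 10.14 at 16 weeks, against 11.54 and 11.24 at 6 weeks, and Kcna4 8.10 and 7.44, against 8.59 and 8.52 at 6 weeks, the same low arrays as above. In db/db islets the count was 5 of 70, against 7.61%, and 0.0644% of all genes passed, 0.0386% lower. The count was 6 of 70, against 3.9%, in ob/ob islets and 3 of 70, against 2.87%, in lean 6J islets. Kcnu1, a channel known from sperm, was 3.22 and 2.97 in 16-week db/db islets, against 3.57 and 3.73 at 6 weeks, a difference of -0.55 ± 0.16 (adjusted p from limma = 0.366). Kcns3 was 4.95 and 5.20 in 16-week ob/ob islets, against 4.36 and 3.85 at 6 weeks, a difference of 0.97 ± 0.27 that did not pass.

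Kcna2, a Shaker-type pore chosen after its values were seen, separated the strains. It lay between 3.94 and 4.89 on the 8 KsJ arrays, db/db and lean, and between 5.20 and 5.85 on the 8 6J arrays, as for 0.644% of all genes. Obese and lean arrays of a strain overlapped in each pair. The titles of these 16 samples hold a number that differs between the strains, so strain and whatever that number marks cannot be told apart.

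The other genes named by rule are given here. On the mean of the 4 pairs the accessory gene Kcne3 differed by 0.38, the silent subunit Kcnf1 by -0.08, the A-type pore Kcnd1 by 0.04, the sodium-activated Kcnt1 by 0.10 and the silent Kcnv1 by -0.12, and none passed. Kcnab1 differed by -0.10, with a 95% interval of -0.41 to 0.20. Dim were Kcna7, Kcna10, Kcnc1, Kcnc2, Kcne1, Kcne1l, Kcne2, Kcng1, Kcng2, Kcng4, Kcnh7, Kcnj5, Kcnj16, Kcnk7, Kcnk18, Kcns1, Kcnt2 and Kcnv2. Kcnc1 lay just under the limit with a mean of 2.96 and Kcnj9 just above it with 3.01. Kcnj13, Kcnk3, Kcnmb4os1 and Kcnmb4os2 were not analysed here.

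Of the partners of these channels that are not Kcn genes, 14 of 18 listed were measured and none passed in the 4 single comparisons of obese and lean islets. Their unadjusted p was under 0.05 for 3 of 14 in 16-week db/db islets, against 24.5% of all genes, and for 4 in 6-week db/db islets, against 8.52%. It was for 2 in 16-week ob/ob islets, against 16.6%, and for 1 in 6-week ob/ob islets, against 6.15%. On the mean of the 4 pairs 2 of 14 were lower, against 3.71% of all genes. Dpp10, an auxiliary protein of the Kcnd channels, fell by 1.20 ± 0.23 on the log2 scale (adjusted p from limma = 0.0109). It was 6.45 and 6.30 in 16-week ob/ob islets, against 8.42 and 8.39 in lean islets. Lrrc38, an auxiliary protein of the large-conductance channel, fell by 0.41 ± 0.11 (adjusted p from limma = 0.0384). Its signal was near the dim limit, between 2.45 and 3.96 over the 16 arrays. Of 14 genes of the sodium-potassium ATPase, which maintains the potassium gradient, 8 were tested. Its regulator Fxyd6 was 10.31 and 10.67 in 16-week db/db islets, against 9.33 and 9.56 in lean islets, a difference of 1.05 ± 0.17 (adjusted p from limma = 0.0161). It was the only 1 of the 8 to pass there, against 5.8% of all genes. The lean arrays of this pair were its lowest, and it lay between 9.90 and 10.76 on the other arrays of the larger table. On the mean of the 4 pairs 2 of the 8 were higher, against 7.15% of all genes. Fxyd5 was higher by 0.51 ± 0.13 (adjusted p from limma = 0.0291) and Fxyd6 by 0.36 ± 0.09 (adjusted p from limma = 0.0242). The calls of Dpp10, Lrrc38, Fxyd5 and Fxyd6 were not checked under the alternative fits.

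In the smaller table, a difference of more than 1 was seen upward for Kcnab3, Kcnk16, Kcnk5 and Kcnn3, 4 of 70 against 5.98% of all genes, and downward for Kcnd3, Kcng3 and Kcnq1, 3 of 70 against 2.24%. With 1 array per group these differences had no replicate check. Kcnn3 was 8.38 in db/db and 7.07 in lean islets, and Kcnab3 was 6.94 in db/db and 4.87 in lean islets. The median difference was 0.10 over the 70 genes and 0.09 over all genes.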

How the data were processed

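Biotin-labelled RNA was hybridised to 18 Affymetrix arrays, per the labels, and the authors deposited a log2 signal for each transcript cluster. MAS5, RMA and Partek are listed in the submitters' processing notes with neither role nor version. Background correction and genome build are not stated in the labels. Both tables held 41034 clusters, of which 23521 were annotated to 1 gene, 1814 to several and 15699 to none, and symbols were updated through Entrez IDs with the GRCm38.p6 gene table. The 15526 of 22180 genes above the 30th percentile of mean signal were tested. The model had a mean for each of 8 groups and was fitted with limma 3.58.1 (R 4.3.3) to 16 arrays, with 8 residual degrees of freedom and two-sided p-values adjusted by the Benjamini-Hochberg method, and the script was tested on simulated data. The smaller table entered no test except 1 alternative that joined both. Alternatives were other filters, normalizations, variance models, the mean over the clusters of a gene, marker and Xist covariates, the compared groups alone and each array left out in turn. Centring on all clusters and the mean of the 4 obese minus lean differences were chosen after seeing the data.

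The members and lists were chosen with earlier results of these data known. Genes are named when they passed, had one of the 5 smallest p-values in an obese against lean comparison, belonged to a fixed set with a known islet role, had the highest mean of their subfamily or one of the 5 largest ranges. Others are marked as chosen after their values were seen. Plots used Python 3.11.15 and matplotlib 3.10.9.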

Additional observations from a re-analysis of the deposited data

Results flagged for a closer look

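For 16 combinations of gene and age, every obese array of one model lay on one side of its lean arrays and every obese array of the other model on the opposite side. The difference between the models, db/db effect minus ob/ob effect on the log2 scale, was tested for each and none passed after adjustment over all genes. At 16 weeks db/db islets were above and ob/ob islets below their lean arrays for 11 genes. The difference was 2.12 (adjusted p from limma = 0.149) for Kcnj3, 1.82 (adjusted p from limma = 0.15) for Kcnh8 and 1.79 (adjusted p from limma = 0.169) for Kcnip3. It was 1.58 (adjusted p from limma = 0.195) for Kcnn2, 1.38 (adjusted p from limma = 0.149) for Kcnj6 and 1.27 (adjusted p from limma = 0.149) for Kcna4. It was 1.20 (adjusted p from limma = 0.307) for Kcna5, 1.13 (adjusted p from limma = 0.345) for Kcne4 and 1.08 (adjusted p from limma = 0.315) for Kcnma1. For Kcnmb2 it was 0.93 (adjusted p from limma = 0.26) and for Kcnh2 0.92 (adjusted p from limma = 0.232). The 3 genes with the reverse pattern were Kcnj9 at -1.88 (adjusted p from limma = 0.143), Kcnmb3 at -1.32 (adjusted p from limma = 0.166) and Kcna6 at -0.55 (adjusted p from limma = 0.537). At 6 weeks db/db islets were above and ob/ob islets below for Kcnk6 at 0.61 (adjusted p from limma = 1) and Kcnu1 at 0.57 (adjusted p from limma = 1). Among all genes, 7.37% and 1.66% showed these patterns at 16 weeks, and 1.42% showed that of Kcnk6 and Kcnu1 at 6 weeks. Kcnk6 was chosen after its values were seen.

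The difference between the models at 16 weeks passed for some channel genes only without lean KsJ 16-week replicate 1. That fit left 1 array in its group. In every other fit that left out an array or changed a setting it passed for none.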

How the results depend on the processing

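The number of channel genes that passed in 16-week db/db against lean islets, 6 with all arrays, was 2 with no filter on dim genes, 10 with centring on all clusters, 13 with the Xist covariate and 13 with both tables joined and the table as a block. It was 0 after quantile normalization, after median centring, without the 3 arrays that stand apart (lean KsJ 16-week replicate 2, lean 6J 6-week replicate 2 and db/db 16-week replicate 2) and in the fit of the compared groups only. Leaving out each array in turn, always 1 at a time, gave 0 to 26: 26 without lean KsJ 16-week replicate 1, 1 without replicate 2, 0 without either 16-week db/db array, 1 without either 6-week lean KsJ, 16-week lean 6J or 16-week ob/ob array, and 2 without either 6-week db/db array. In 16-week ob/ob islets, where none passed with all arrays, the fit of the compared groups alone gave 13, that without the 3 arrays that stand apart gave 1, and leaving out each array gave 0 to 5, with 5 without either 6-week ob/ob array and 2 without either 16-week lean KsJ array. For 6-week ob/ob islets the range was 0 to 2, with 2 without ob/ob replicate 2. For age in lean KsJ islets it was 0 to 31 and for the difference between models at 16 weeks 0 to 21, with the highest counts without lean KsJ 16-week replicate 1. For the mean of the 4 pairs, 8 with all arrays, the range was 5 to 18 over the arrays left out, with 18 without lean KsJ 16-week replicate 1, 13 without replicate 2 or without 6-week ob/ob replicate 2, and 5 without lean KsJ 6-week replicate 1, ob/ob 6-week replicate 1, db/db 6-week replicate 2 or lean 6J 16-week replicate 2, and 6 to 12 over the 11 other settings. A group with 1 array left is assumed to vary like the other groups. The share of all genes that passed in each of these fits is not given here. A change in these counts is therefore not a result about channel genes in particular. The cause of these changes was not tested. Of the values of single named genes under the alternatives, 132 lost and 56 gained a call, 4319 did neither, and none reversed after having been called. No paired analysis was possible because the labels give no replicate number shared between groups. With 2 arrays per group and no probe-level background values, small differences of dim genes were not detectable.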
